A study of Rattus norvegicus with 42 samples.

Results

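RNA sequencing libraries of wild-type GH4C1 cells taken 26 h after a change of medium (ZT26) were compared with libraries taken 14 h after it (ZT14), 12 h earlier and so in the opposite phase of a 24 h cycle. These were 6 of the 42 libraries of the series, chosen by genotype and time label, with 3 replicates at each of the 2 times. GH4C1 is an established rat somatolactotroph line from the pituitary, that is, a line of the cells that make growth hormone and prolactin. The wild-type (WT) cells carried no edit and had no treatment, per the labels. The series also holds GH4C1 cells labelled Neat1 -/- (KO), made with CRISPR-Cas9, and both genotypes were sampled every 4 h from 10 h to 34 h. The labels do not say whether the KO cells are 1 clone, nor whether the replicates of a time came from separate cultures, so that p-values measure the spread between these libraries, which may be technical.

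Fresh medium is a common way to bring cultured cells into step. In mammalian cells it can align the circadian clock, a loop of transcription factors that switch on their own repressors and so give levels of many transcripts a period near 24 h. It can also set off a response to the medium itself, in which transcripts move once and settle. Neat1, the RNA deleted in KO, is the scaffold of paraspeckles, nuclear bodies that hold back certain proteins and RNAs, and the series was made to study its part in rhythmic expression. ZT normally stands for zeitgeber time, time counted from an external cue, which here is the medium change.

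Levels are given in CPM, a gene's count scaled to a library total that was adjusted by edgeR's TMM factors. Those of single genes are on one scaling of all 42 libraries. The 6 libraries held 39.1 to 48.0 M counts (M, mega) at ZT14 and 40.2 to 60.4 M at ZT26, within the range of 34.5 to 68.8 M of the series. Genes are known by Ensembl identifiers only, and 0 of 13776 could be paired with a symbol, so the pituitary identity of the cells, the Neat1 level and named pathways were not analysed here. At ZT14 6.04% to 6.47% of the counts fell on the 10 genes with most counts, and at ZT26 6.72% to 6.91%, ranges that did not overlap. The most abundant gene was the same in all 6 libraries, with 1.67% to 2.00% of the counts at ZT14 and 2.27% to 2.41% at ZT26. It was called higher at ZT26 by edgeR, by 0.30 on the log2 scale (SE 0.06, adjusted p = 0.0154). Its part in the other differences was not tested.

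The ZT26 libraries were close to each other, and 1 ZT14 library stood apart. Across genes, pairs of ZT26 libraries correlated at 0.994 in log2 CPM, and pairs of ZT14 libraries at 0.991 to 0.994. On the first principal component of the 6 libraries, which held 33.6% of the variance, the ZT26 libraries lay at 11.97 to 15.4 and the ZT14 libraries at -20.9 to -8.90. The second component held 23.8% and set ZT14 replicate 1, at 19.0, far from the other two ZT14 libraries, at -14.6 and -13.5. The deviation of ZT14 replicate 1 from its group mean correlated, over genes, with the deviations of ZT10 replicate 3 (0.509), ZT18 replicate 3 (0.564) and ZT30 replicate 2 (0.443). The labels give no batch that these 4 libraries share. The counts of genes called in each comparison that uses ZT14 replicate 1 are therefore also given below without it. The counts by size of change, by level, without overlap and for the choice of single genes rest on all 6 libraries. The genes followed over the course were also chosen with all 6.

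Between ZT14 and ZT26, 1071 of 13723 genes tested changed, a share of 7.8%, by edgeR's quasi-likelihood test at an adjusted p under 0.05. Of these, 511 rose (3.72%) and 560 fell (4.08%). An unadjusted p under 0.05 was found for 3199 genes. The changes were small. The median absolute log2 fold change of the called genes was 0.32, a 1.24-fold change, against 0.10 over all genes tested. Of the called genes, 556 differed by less than 1.25-fold, 380 by 1.25 to 1.5-fold and 111 by 1.5 to 2-fold. At 2-fold and above there were 24 genes, of which 6 rose and 18 fell. The largest rise was 4.26 and the largest fall -5.02 on the log2 scale. The gene with the largest fall, ENSRNOG00000023387, had a mean of 7.27 CPM. It was not called in the other WT comparisons given below. Its log2 fold change was 1.39 for ZT22 and ZT30 against ZT10 and ZT18, and -0.25 for ZT34 against ZT10.

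The 3 libraries of one time lay wholly above or below the 3 of the other for 4137 genes, a share of 30.1%, with 2033 higher (14.8%) and 2104 lower (15.3%) at ZT26. This held for 1070 of the 1071 called genes, 510 of the 511 that rose and all 560 that fell. Without ZT14 replicate 1, 2346 genes were called, 1155 higher and 1191 lower at ZT26. These included 1069 of the 1071 genes in the same direction. The coefficient of variation between replicates was 0.0888 with that library and 0.0688 without it. The count was 518 without ZT14 replicate 3, and 360, 373 and 409 without ZT26 replicates 1, 2 and 3. In each of these sets 47.5% to 49.7% of the called genes were higher at ZT26.

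**Figure D1:**
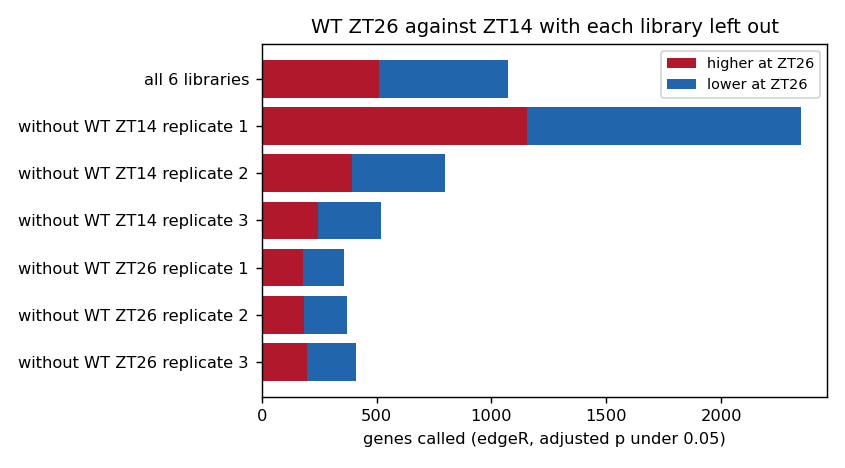
Number of genes called in WT ZT26 against ZT14 (x axis, number of genes, edgeR, adjusted p under 0.05), for all 6 libraries and with each library left out in turn (y axis), split into higher (red) and lower (blue) at ZT26. The count was 1071 with all libraries, 2346 without ZT14 replicate 1, and 360 to 800 without any other library.

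More genes were called where the level was higher, and smaller changes were then called. Genes were split by their mean level, on a scaling of the 6 libraries only, into 4 sets of equal size. In the lowest set, 0.189 to 6.40 CPM, 2.45% were called, and the median size of the called changes was 0.77 on the log2 scale. The share was 5.83% in the second set, 9.77% in the third and 13.2% in the set from 69.9 CPM upward, where the median of the called genes was 0.27. The median over all genes of a set, called or not, was 0.18 in the lowest and 0.08 in the highest. Rising genes made up 51.2% of the calls in the lowest set and 46.9% in the highest.

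**Figure D2:**
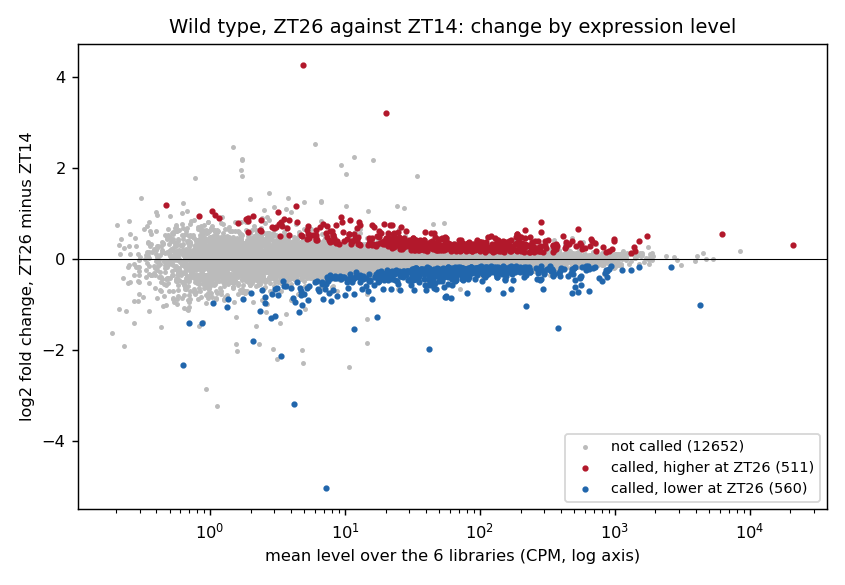
Log2 fold change of ZT26 minus ZT14 (y axis) against the mean level over the 6 WT libraries (x axis, CPM on a log axis), with 1 point per gene, red for the 511 genes called higher, blue for the 560 called lower and grey for genes not called. Called changes lie closer to 0 at high levels than at low levels.

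Genes are described singly where they had a mean of at least 10 CPM, were called and did not overlap between the times. This held for 939 genes, 444 higher and 495 lower at ZT26, and the first 2 in each direction by fold change are given. As these genes were chosen for this change, the values at ZT14 and ZT26 describe it and do not test it. Without symbols, nothing is said of what their products do.

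Among these 939 genes the one that fell most was ENSRNOG00000043098. Its level was 58.6, 59.96 and 63.5 CPM in the ZT14 libraries and 16.4, 16.3 and 14.2 CPM in the ZT26 libraries. The lowest ZT14 library was thus far above the highest ZT26 library. By edgeR the log2 fold change was -1.96, with an SE of 0.07 and an adjusted p of 1.79e-06, or 3.89-fold lower at ZT26. Over the other WT times its mean was 201.4 ± 5.09 CPM at ZT10, 23.6 ± 2.04 at ZT18, 16.4 ± 1.12 at ZT22, 14.6 ± 0.68 at ZT30 (SD, n = 3 each) and 18.9 ± 1.44 at ZT34 (SD, n = 2, without replicate 1). The level had thus come down before ZT14 and lay between 14.6 and 18.9 CPM from ZT22 onward. At ZT34, the same phase as ZT10, it was 10.7-fold lower than at ZT10 (log2 fold change -3.43, SE 0.08, adjusted p = 3.84e-08 by edgeR). In KO the gene was low from the start, with 15.6 ± 1.16 CPM at ZT10, 12.6 ± 1.33 at ZT14 and 12.4 ± 0.29 at ZT26 (SD, n = 3 each). The change from ZT14 to ZT26 was 1.93 more positive in KO than in WT on the log2 scale (SE 0.11), a difference that holds the WT change by which the gene was chosen and is given with no test.

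ENSRNOG00000057989 followed, with 15.8, 15.0 and 16.2 CPM at ZT14 and 4.52, 6.56 and 5.15 CPM at ZT26. By edgeR the log2 fold change was -1.54, with an SE of 0.13 and an adjusted p of 4.01e-04, and the ranges were well apart. Its WT mean stepped down from 21.6 ± 1.02 CPM at ZT10 through 9.98 ± 1.76 at ZT18 and 7.51 ± 0.50 at ZT22 to 5.48 ± 0.16 at ZT30 (SD, n = 3 each). At ZT34 the 2 libraries other than replicate 1 held 7.11 CPM each, and replicate 1 held 3.83 CPM. ZT34 was 3.08-fold lower than ZT10 (log2 fold change -1.62, SE 0.10, adjusted p = 1.52e-05 by edgeR). In KO it was between 0.138 and 0.769 CPM in all 21 libraries, below every WT library.

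ENSRNOG00000001036 had the largest rise among the 939 genes. Its level was 6.60, 7.91 and 6.54 CPM at ZT14 and 13.5, 12.4 and 12.7 CPM at ZT26, with a gap between the times. By edgeR the log2 fold change was 0.86, with an SE of 0.09 and an adjusted p of 0.00127, or 1.82-fold higher at ZT26. It was already at 9.97 ± 0.50 CPM at ZT18 and 11.7 ± 0.25 at ZT22, and stood at 13.5 ± 0.88 at ZT30 (SD, n = 3 each). At ZT34 it was 1.69-fold above ZT10 (log2 fold change 0.75, SE 0.12, adjusted p = 0.00222 by edgeR). In KO its mean was 1.56 to 2.10 CPM over the 7 times. The ZT14 to ZT26 change in KO minus that in WT was -0.55 on the log2 scale (SE 0.20), again with no test.

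ENSRNOG00000056599 rose from 8.18, 7.67 and 8.84 CPM at ZT14 to 14.96, 15.04 and 13.95 CPM at ZT26, again without overlap. By edgeR the log2 fold change was 0.82, with an SE of 0.08 and an adjusted p of 9.09e-04. Unlike the other 3 genes, it had its lowest WT mean at ZT14. The mean was 11.2 ± 1.85 CPM at ZT10, 10.6 ± 0.37 at ZT18, 10.5 ± 1.58 at ZT22 and 14.9 ± 1.59 at ZT30 (SD, n = 3 each). At ZT34 it held 24.7 and 30.2 CPM in replicates 2 and 3 and 13.8 CPM in replicate 1. Without replicate 1, ZT34 was 2.41-fold above ZT10 (log2 fold change 1.27, SE 0.14, adjusted p = 4.26e-04 by edgeR). In the test of ZT22 and ZT30 against ZT10 and ZT18, given below, it was not called (log2 fold change 0.20, SE 0.09, adjusted p = 0.119 by edgeR). The other 3 genes were called there in the direction of their change. In KO it was uneven between replicates, from 10.5 to 26.8 CPM at ZT26 and from 24.5 to 48.1 CPM at ZT14. When all 42 libraries shared the estimate of spread, its call in WT was lost (log2 fold change 0.83, SE 0.37, adjusted p = 0.293 by edgeR), as it was without WT ZT34 replicate 1 (adjusted p = 0.145 by edgeR).

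**Figure D3:**
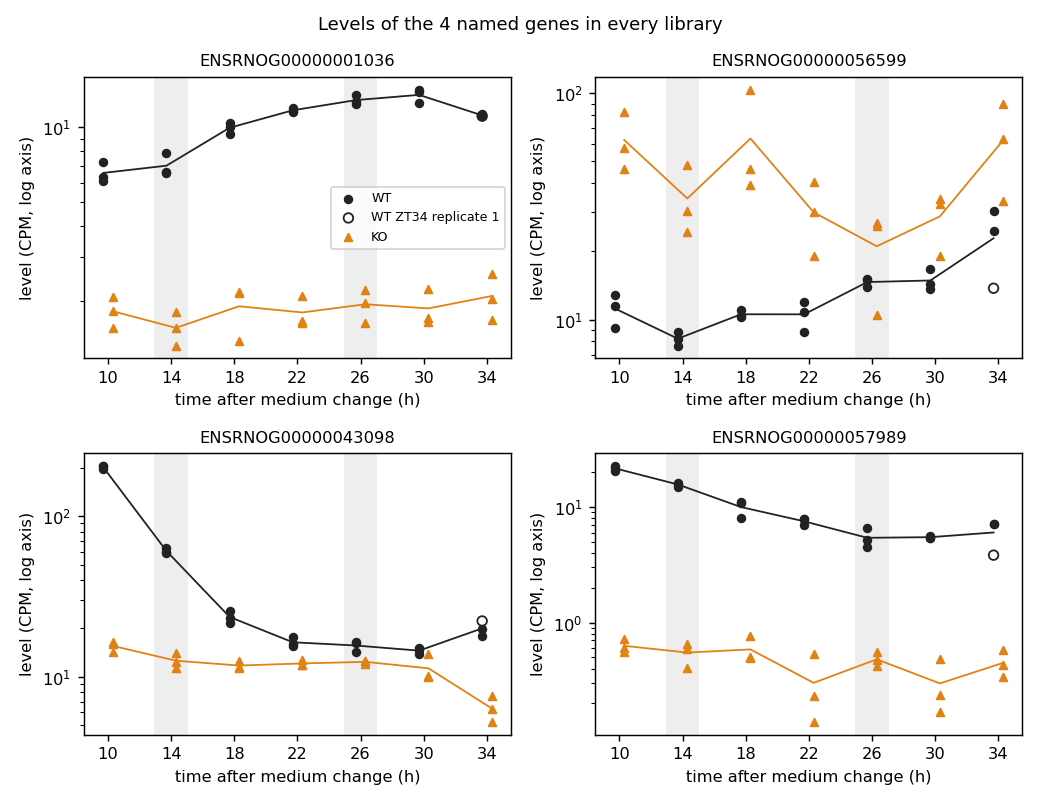
Level (y axis, CPM on a log axis) of the 4 genes named in the text in each library against the time after the medium change (x axis, h), with black circles for WT, orange triangles for KO, an open circle for WT ZT34 replicate 1, lines through the group means (all 3 replicates) and grey bands at ZT14 and ZT26. In WT the upper left gene climbs from 6.56 CPM at ZT10 to 13.5 CPM at ZT30, and the lower 2 fall from ZT10 until ZT26 or ZT30.

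Whether the change held in other libraries was tested at the times 4 h either side of those compared. The mean of ZT22 and ZT30 was set against the mean of ZT10 and ZT18 in WT, 12 libraries of which none is from ZT14 or ZT26. This test called 3631 of 13743 genes (26.4%), 1784 higher (13%) and 1847 lower (13.4%) at the later times. Of the 511 genes that rose from ZT14 to ZT26, 360 (70.5%) were called higher at the later flanking times and 3 were called lower. Of the 560 genes that fell, 462 (82.5%) were called lower and 0 were called higher. Together 822 genes were called the same way in both, which is 76.8% of the genes called between ZT14 and ZT26 and 22.7% of those called at the flanking times. The median log2 change at the flanking times was 0.20 for the rising genes and -0.26 for the falling genes, against 0.32 and -0.30 in the comparison that chose them.

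The 3 libraries whose deviations went with that of ZT14 replicate 1 are all among these 12. When ZT10 replicate 3 and ZT18 replicate 3 were left out, 5589 genes were called at the flanking times, against 3631 with all 12 libraries. Of the 1071 genes, 802 (74.9%) were then called the same way and 10 the opposite way, against 822 (76.8%) and 3. The 802 were 14.4% of the genes called at the flanking times, against 22.7% with all 12 libraries. As more of all genes were called, the similar share does not show that agreement was unchanged. When ZT14 replicate 1 was also left out of the choice of genes, 1679 of 2346 genes (71.6%) were called the same way and 45 the opposite way. The 1679 were 30.1% of the genes called at the flanking times.

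A 24 h cycle returns to the same level after 24 h, so ZT34 was compared with ZT10, again without a library of ZT14 or ZT26. The 3 ZT10 libraries also enter the test at the flanking times, so these comparisons are not independent of each other. WT ZT34 replicate 1 stood apart from its own replicates, with a correlation of log2 CPM as low as 0.919, and was left out. By edgeR 2959 of 13752 genes (21.5%) differed, 1313 higher (9.55%) and 1646 lower (12%) at ZT34. Of the 511 genes that rose from ZT14 to ZT26, 262 (51.3%) were also called higher at ZT34 than at ZT10, 10 were called lower and 239 were not called. Of the 560 that fell, 416 (74.3%) were also called lower, 3 were called higher and 141 were not called. The median log2 change from ZT10 to ZT34 was 0.30 for the rising and -0.42 for the falling genes. With replicate 1 of ZT34 included, 24 genes were called, and the medians were 0.33 and -0.46. Of the 1071 genes called between ZT14 and ZT26, 23 (2.15%) were then called the same way, which is 95.8% of those 24 genes. Called or not, 943 of the 1071 (88%) changed in the same direction with replicate 1 included, against 973 (90.8%) without it. Of the 2346 genes called without ZT14 replicate 1, 1228 (52.3%) were called the same way between ZT10 and ZT34 and 23 the opposite way. Of the other libraries, leaving out ZT10 replicate 1 or 2 or ZT34 replicate 3 lowered the count of 2959 most, to 1953, 1797 and 1966.

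The course of these genes over all WT times was taken from ZT10 as the base. Only the steps between times other than ZT14 and ZT26 use no library that chose the genes. The libraries whose deviations went with that of ZT14 replicate 1 enter these steps, which were not recomputed without them. For the 511 rising genes the median log2 change from ZT10 was 0.05 at ZT14, 0.22 at ZT18, 0.29 at ZT22, 0.38 at ZT26, 0.33 at ZT30 and 0.32 at ZT34 (without replicate 1). For the 560 falling genes it was -0.10, -0.23, -0.33, -0.39, -0.42 and -0.40 at the same times. Over all genes tested it stayed between -0.0016 and 0.0146. Over the 8 h from ZT10 to ZT18, 82.6% of the rising genes went up and 94.1% of the falling genes went down, with median steps of 0.22 and -0.23. Over the 4 h from ZT18 to ZT22 these shares were 85.7% and 88%, with steps of 0.09 and -0.10. Over the 8 h from ZT22 to ZT30 they were 66.7% and 75.5%, with steps of 0.05 and -0.07. Between ZT30 and ZT34 the direction was mixed, with 46.8% of the rising genes still going up and 43.8% of the falling genes still going down. Of all genes tested, 49.6% were higher at ZT18 than at ZT10, and for the later steps this share was not taken.

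The WT time at which each gene was highest and lowest describes the course gene by gene. Among the rising genes the lowest mean was at ZT10 for 299 (58.5%) and at ZT14 for 156 (30.5%), and at ZT34 for 35 (6.85%). Their highest mean was at ZT26 for 219 (42.9%), at ZT34 for 168 (32.9%) and at ZT30 for 84 (16.4%). Among the falling genes the highest mean was at ZT10 for 421 (75.2%) and at ZT14 for 115 (20.5%). Their lowest mean was at ZT34 for 196 (35%), at ZT30 for 176 (31.4%) and at ZT26 for 138 (24.6%). The choice of genes favours ZT14 and ZT26 in these counts, so they are given as a description. The course means at ZT34 leave out replicate 1 and so rest on 2 libraries, against 3 at each other time. The same counts over all genes tested were not taken.

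**Figure D4:**
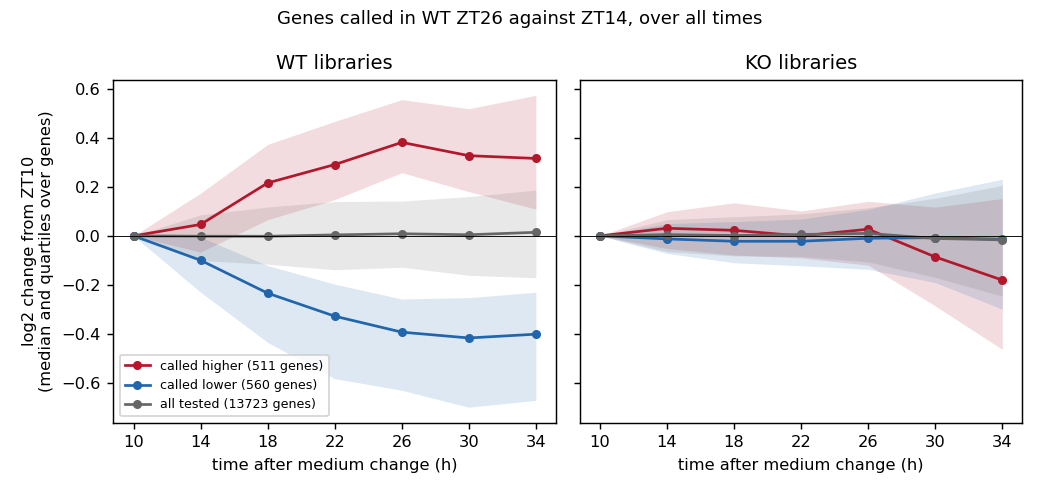
Median log2 change from ZT10 over genes (y axis) against the time after the medium change (x axis, h) in WT (left, ZT34 without replicate 1) and KO (right), for the genes called higher (red, rising) or lower (blue, falling) in WT ZT26 against ZT14 and for all genes tested (grey), with bands from the lower to the upper quartile. The rising genes have medians of 0.38 at ZT26 and 0.32 at ZT34 in WT, and 0.03 and -0.18 in KO; the falling genes have -0.39 and -0.40 in WT, and -0.01 at both times in KO.

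The same interval was then examined in KO, whose libraries share none with WT. By edgeR 891 of 13722 genes (6.49%) differed between KO ZT26 and KO ZT14, 419 higher (3.05%) and 472 lower (3.44%). Of the 511 genes that rose in WT, 30 (5.87%) were called higher and 56 (11%) lower in KO. Of the 555 genes that fell in WT and were tested in KO, 42 (7.57%) were called lower and 38 (6.85%) higher. In all, 72 genes were called the same way in both genotypes, 6.75% of the WT calls tested in KO and 8.08% of the KO calls, and 94 were called the opposite way. The median KO change was -0.01 for the genes that rose in WT and -0.0017 for those that fell. Of the 2340 genes called in WT without ZT14 replicate 1 and tested in KO, 129 (5.51%) were called the same way and 168 (7.18%) the opposite way. The count of 891 was 220 to 352 without 1 library of KO other than ZT26 replicate 2, and 1415 without that one.

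The ZT14 to ZT26 changes of KO and WT were also compared directly, in 1 fit of 12 libraries. It was called for 1254 of 13772 genes (9.11%), of which 614 had the more positive change in KO (4.46%) and 640 the more negative (4.65%). Without ZT14 replicate 1 of WT the count was 1847. Since this test uses the WT libraries that chose the 1071 genes, no overlap with them is given. Differences in cell clone or preparation between the genotypes cannot be told apart from the deletion here.

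**Figure D5:**
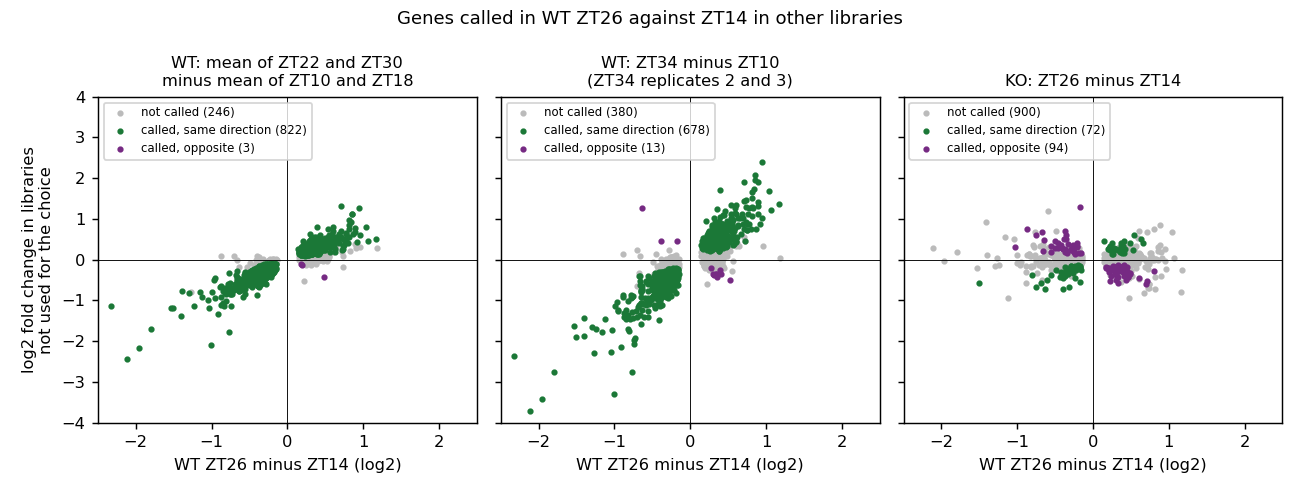
Log2 fold change in libraries outside the comparison (y axis) against the log2 fold change of WT ZT26 minus ZT14 (x axis) for the genes called in the latter, with the WT flanking times (left), WT ZT34 against ZT10 (middle) and KO ZT26 against ZT14 (right); green points were called the same way, purple points the opposite way and grey points were not called. Of the genes shown, 822, 678 and 72 were called the same way in the 3 panels, and 4 genes in each panel lie outside the axes.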

How the data were processed

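The authors deposited 1 table of whole-number read counts per gene for each genotype, counted with featureCounts per the submitters' processing notes. Total RNA was made into strand-specific libraries read as pairs of 150 bp, per the labels' protocols. Aligner, genome build, annotation, strand setting and the rule for listing genes are not given in the sources used here. The highest group mean of a listed gene was never under 50.3 counts, over 13776 genes. Reads of overlapping or near-identical genes may be shared between them.

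Counts were tested in R 4.3.3 with edgeR 4.0.16 (quasi-likelihood F test, TMM scaling, filterByExpr, Benjamini-Hochberg adjustment over all genes tested, threshold 0.05), in a fit of only the libraries compared. The SE given with an edgeR log2 fold change was derived from the test, as the absolute change divided by the square root of F. The filter removed 53 genes between ZT26 and ZT14. The 10 CPM minimum for named genes, the sets by mean level and the counts of genes without overlap used the scaling of the 6 libraries. Log2 CPM had a prior count of 1. No pair of ZT14 or ZT26 replicates agreed within sampling noise (chi-square per degree of freedom at least 5.48), so none was taken for 1 library deposited more than once; this does not show that they are separate cultures. Alternatives included DESeq2 1.42.0 and limma 3.58.1 (voom). Genes, comparisons and lists were chosen with earlier results of these data known. The KO comparison and the overlaps were added after the data were seen. The planned gene lists, markers and promoter motifs need symbols and were not analysed here.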

Additional observations from a re-analysis of the deposited data

Results flagged for a closer look

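The change from ZT14 to ZT26 differed between KO and WT for 1254 genes, by edgeR's direct test of the difference. Among the 4 named genes the difference, KO minus WT on the log2 scale, was -1.53 for ENSRNOG00000056599 (SE 0.40), 1.93 for ENSRNOG00000043098 (SE 0.11) and 1.34 for ENSRNOG00000057989 (SE 0.28). These genes were chosen for their WT change, which the difference contains, so their values are a description and not a test. For ENSRNOG00000057989 the KO level was under 1 CPM in all libraries, so that its KO change rests on few counts.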

How the results depend on the processing

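For WT ZT26 against ZT14, 10 of 18 alternative counts lay within 1.5 times of 1071. With a 1.5-fold minimum change 7 genes were called, all lower at ZT26; this setting asks for larger effects. With all 21 WT libraries sharing the spread the count was 282 and with all 42 it was 525; without WT ZT34 replicate 1 these were 1393 and 1557. DESeq2 called 1501 genes. With 1 library left out the counts were 360 to 2346. At the flanking times they were 2823 to 4655, with 5589 when ZT10 replicate 3 and ZT18 replicate 3 were both left out and 27 with the 1.5-fold minimum. For ZT34 against ZT10 they were 1797 to 3397, with 131 for the 1.5-fold minimum and 24 with ZT34 replicate 1 added. For the difference between KO and WT they were 844 to 1847, with 13 for the 1.5-fold minimum. For KO they were 220 to 1415, and the 1.5-fold minimum gave 0 by edgeR, where 92 genes had an unadjusted p under 0.05.

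The share called the same way elsewhere was recomputed over the genes that each setting called between ZT14 and ZT26, so its base differs between settings. It was 68.1% to 90.1% at the flanking times with 1 WT library of ZT14 or ZT26 left out, and 71.2% with DESeq2. For ZT34 against ZT10 it was 52.3% to 76.9% with such a library left out, 60.1% with DESeq2 and 56.6% with the replicate block. With WT ZT34 replicate 1 included it was 2.15%, 23 of 1071 genes, where 24 genes were called in all between ZT10 and ZT34. For KO the share was 5.51% to 8.66% with 1 WT library of ZT14 or ZT26 left out, and 8.88% with the replicate block. It was not recomputed with a KO library left out, where the count of KO calls ran from 220 to 1415. The deviations of same-numbered ZT14 and ZT26 libraries correlated at 0.139, 0.0884 and 0.0227. ZT14 replicates 1 and 2 correlated best with their own number, and ZT14 replicate 3 with another number. These correlations do not settle whether replicate numbers pair the libraries. With the replicate number as a block 1075 genes were called between ZT14 and ZT26 in WT, against 1071 without it. In KO 1333 genes were called with the block, against 891 without it. The 4 named genes kept their call in 68 of 72 alternatives, with 0 sign changes. Apart from the 1.5-fold minimum, the cause was not tested for these shifts.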
